A study of Mus musculus with 16 samples.

Results

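The genes described here are 34 mouse genes of fatty acid metabolism, 28 for the use and oxidation of fatty acids and 6 for their synthesis, named by symbol and followed on Affymetrix expression arrays. For each gene the probe set with the highest mean signal over the 16 arrays was taken. A probe set naming exactly 1 gene was present for 31 of the 34 genes, 25 of oxidation and 6 of synthesis, out of 17097 genes covered. Acsl1, Hadha and Etfb were not analysed here. The 31 genes had 51 probe sets in all.

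Fatty acids enter a cell from blood lipids, are bound to coenzyme A, cross the mitochondrial inner membrane as carnitine esters and are shortened in rounds of the beta-oxidation spiral, whose electrons pass to the respiratory chain. Synthesis runs in the cytosol from citrate through acetyl-CoA and malonyl-CoA to palmitate, which is then lengthened or desaturated. Malonyl-CoA links both routes, since it blocks the carnitine palmitoyltransferases on the outer mitochondrial membrane. The heart is known for drawing most of its energy from fatty acids, and in the lung the epithelial cells that make surfactant synthesise fatty acids for its phospholipids.

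The samples came from mice with a knock-out (KO) of NM1 and from wild type (WT) mice. Nuclear myosin 1, or NM1, is a product of the motor protein gene Myo1c. Heart and lungs were taken from the same 6 animals, KO 1602, 1603 and 1586 and WT 1592, 1624 and 1593, so that each tissue had 3 samples per genotype. Fibroblasts derived from skin came from other animals, KO 1584 and 1550 and WT 1571 and 1623, with 2 samples per genotype. The sources used here do not give age, sex, strain, the passage of the fibroblasts or the part of Myo1c removed. Mouse numbers were read as separate animals. Values are log2 signals as deposited, with 1 unit for a doubling. They carry no count or detection call, and precision is limited by the number of arrays.

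The heart and lungs labels were borne out by defining transcripts. Myl2, the ventricular myosin light chain, lay at 13.83 to 13.98 in heart samples and at 3.19 to 4.14 in lungs. Other heart muscle markers did give signal in lungs, as described below. Sftpc, a surfactant protein, lay at 13.92 to 14.13 in lungs and at 3.41 to 6.22 in heart. Col1a1, a chain of type I collagen, lay at 10.88 to 11.61 in fibroblasts and is not compared with the other tissues here. The Myo1c probe set with the highest signal lay at 8.29 to 8.53 in KO hearts against 9.18 to 9.31 in WT hearts, at 9.20 to 9.85 in KO lungs against 10.30 to 10.95 in WT lungs, and at 8.65 to 8.73 in KO fibroblasts against 9.82 to 10.20 in WT fibroblasts. These probe sets do not tell the isoforms apart. Some libraries stood apart. The upper quartile of all probe sets was 5.63 in KO heart 1602 and 6.17 to 6.31 in the other 5 hearts. In lungs, the mean of 7 adipocyte markers was 8.40 in KO 1603, 8.96 in KO 1586 and 6.99 in WT 1592, against 3.79 in KO 1602, 4.12 in WT 1624 and 3.94 in WT 1593. Where leaving these libraries out changed calls among the members, counts or values without them are given. In whole tissue, fewer cells of a type and less RNA per cell cannot be told apart.

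The promoters of 4 members whose tissue patterns differ are shown first. They run from 250 bases before to 50 bases after the gene start in RefSeq, build GRCm38.p6, and are written in the direction of the gene. Acadm stands for the dehydrogenases that were far higher in heart, Cpt1a for the single oxidation gene that was not, Acacb for the carboxylase that followed the oxidation genes, and Fasn for the synthesis genes that were lower in heart. Capitals mark the nuclear receptor half-site AGGTCA, read on either strand, which on the printed strand may appear as TGACCT.
Acadm promoter, chr3:153944594-153944893, minus strand: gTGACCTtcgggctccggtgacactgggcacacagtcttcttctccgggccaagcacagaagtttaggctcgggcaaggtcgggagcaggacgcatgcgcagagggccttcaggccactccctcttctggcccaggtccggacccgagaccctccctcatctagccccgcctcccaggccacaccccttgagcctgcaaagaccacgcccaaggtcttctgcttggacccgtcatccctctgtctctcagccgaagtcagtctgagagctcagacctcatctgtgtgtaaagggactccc
Cpt1a promoter, chr19:3323051-3323350, plus strand: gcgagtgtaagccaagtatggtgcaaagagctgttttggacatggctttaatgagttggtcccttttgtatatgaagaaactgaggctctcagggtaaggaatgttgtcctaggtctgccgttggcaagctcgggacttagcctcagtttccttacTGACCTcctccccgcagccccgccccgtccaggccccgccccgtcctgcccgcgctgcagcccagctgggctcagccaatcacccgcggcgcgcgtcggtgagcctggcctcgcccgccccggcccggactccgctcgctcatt
Acacb promoter, chr5:114165268-114165567, plus strand: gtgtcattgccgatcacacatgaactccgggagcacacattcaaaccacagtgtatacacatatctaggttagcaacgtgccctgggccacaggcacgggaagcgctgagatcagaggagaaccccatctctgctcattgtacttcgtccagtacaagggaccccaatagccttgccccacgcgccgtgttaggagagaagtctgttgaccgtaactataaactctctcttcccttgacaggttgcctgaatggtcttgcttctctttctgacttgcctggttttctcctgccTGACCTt
Fasn promoter, chr11:120824498-120824797, minus strand: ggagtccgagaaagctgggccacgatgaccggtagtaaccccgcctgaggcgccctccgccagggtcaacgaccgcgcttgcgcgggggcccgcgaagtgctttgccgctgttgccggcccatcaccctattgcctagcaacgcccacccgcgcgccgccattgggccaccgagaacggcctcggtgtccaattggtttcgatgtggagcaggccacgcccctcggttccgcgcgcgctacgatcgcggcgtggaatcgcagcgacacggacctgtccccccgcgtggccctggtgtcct
The half-site began at base -249 in Acadm, at base -94 in Cpt1a and at base 43 in Acacb, counted from the gene start, and the letters were not in the Fasn window. Promoter windows were found for 20 oxidation genes and 5 synthesis genes among those measured. The half-site was in 5 of the 20 (Acadm, Acadvl, Cd36, Cpt1a and Echs1) and in 3 of the 5 (Acacb, Acly and Elovl6), against 16.3% of 32851 promoter windows. The direct repeat AGGTCA, any 1 base N, AGGTCA, the arrangement bound by PPAR and RXR receptors, was in none of the 25, against 0.0396% of all windows. The GC box GGGCGG was in 13 of the 20 oxidation windows and 1 of the 5 synthesis windows, against 35.7% of all, and CCAAT was in 9 and 3, against 37.4%. The E-box CACGTG was in none, against 7.15%, and TATAAA was in Acacb alone, against 13.6%. Motifs were searched on both strands.

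Oxidation genes were higher in heart than in lungs and in fibroblasts. In WT animals, 24 of the 25 were higher in heart than in lungs and the same number were higher in heart than in fibroblasts (limma, adjusted p under 0.05, with adjustment over all probe sets that passed a filter on low signal). Of all probe sets tested, 25.6% were higher in WT heart than in WT lungs and 28.2% were higher in WT heart than in WT fibroblasts. The median difference of the oxidation genes was 3.04 against lungs and 3.48 against fibroblasts, beside medians of -0.18 and -0.14 over all probe sets tested. All 31 members passed the filter in these comparisons. The exception was Cpt1a in both. In KO animals, 24 of the 25 were again higher in heart in each comparison, against 25.2% of all probe sets higher in KO heart than in KO lungs and 24.9% higher in KO heart than in KO fibroblasts. The medians were 2.61 and 3.54, beside -0.32 over all probe sets in each. Without the 3 lungs samples with high adipocyte markers, KO lungs 1602 was alone in its group. All oxidation genes other than Cpt1a were still above 0 in KO heart minus KO lungs. Lpl, at 2.77, and Acot2, at 0.52, were then not called. Lpl was also not called there without KO lungs 1602, at 2.09 (limma, adjusted p = 0.0541), nor was Acot2 in KO heart minus KO fibroblasts without KO fibroblasts 1550, at 0.98 (limma, adjusted p = 0.0755). The WT heart minus WT lungs counts were the same without WT lungs 1592 and those KO samples.

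**Figure D1:**
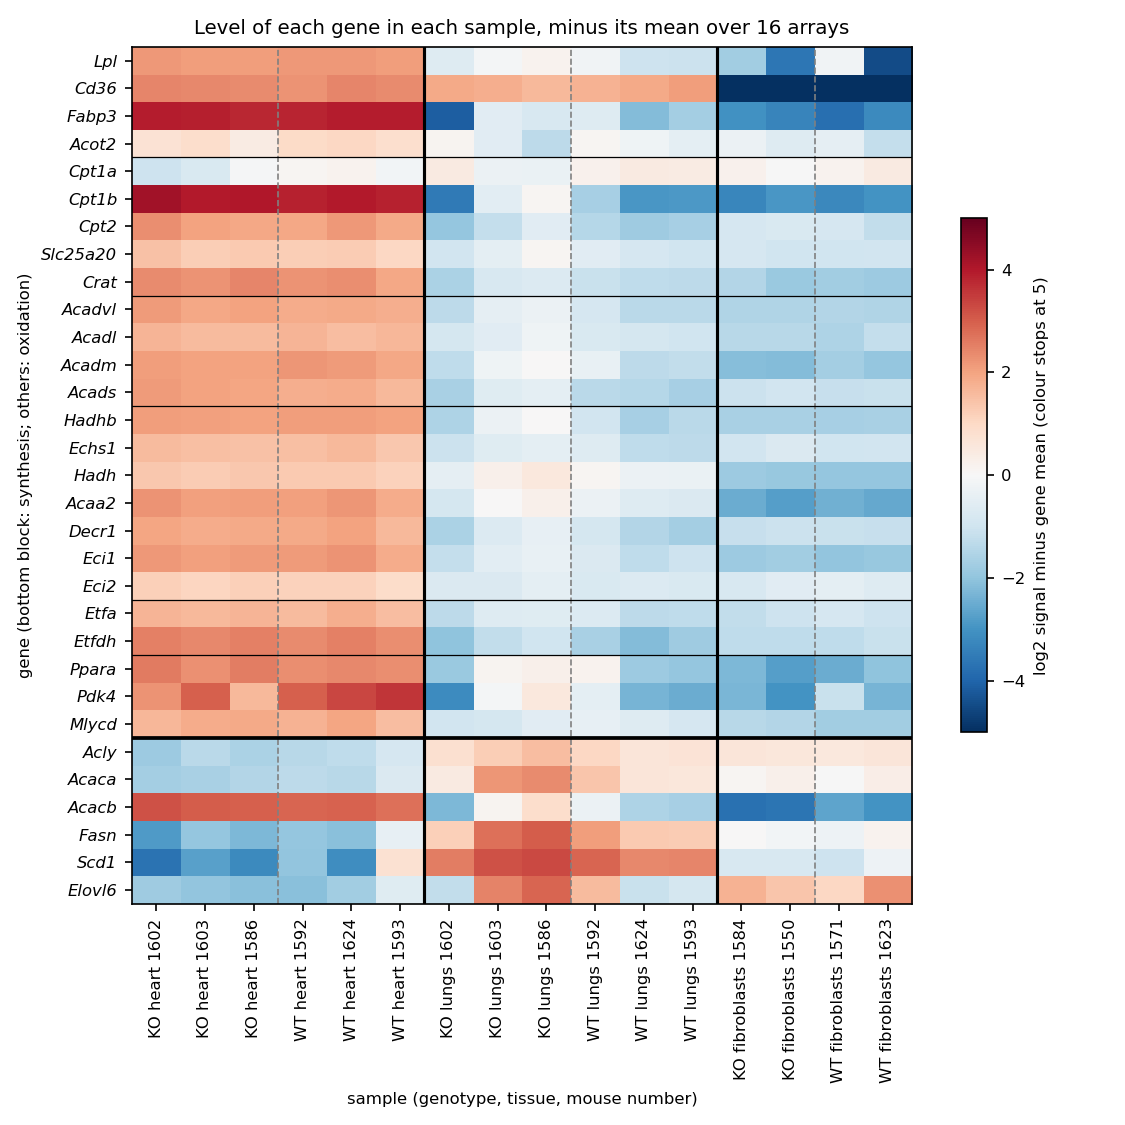
Level of each of the 31 measured genes in each of the 16 samples, as log2 signal minus that gene's mean over all arrays (colour, red above and blue below the mean, stopping at 5 units). Columns are samples with KO left of WT in each tissue, rows are genes by role with the 6 synthesis genes in the bottom block. The heart columns are red for all oxidation genes other than Cpt1a and for Acacb, and blue for Acly, Acaca and Fasn.

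Among the genes of uptake, Fabp3, the fatty acid binding protein of heart muscle, lay at 13.39, 13.35 and 13.21 in KO hearts and at 13.26, 13.38 and 13.36 in WT hearts. In lungs it lay at 5.33, 8.87 and 8.63 in KO and at 8.81, 7.30 and 7.77 in WT, and in fibroblasts at 6.41 and 6.15 in KO and 5.67 and 6.27 in WT. All 6 hearts were above all other samples. The WT difference was 5.38 ± 0.68 (SE) against lungs (limma, adjusted p = 1.15e-05) and 7.36 ± 0.76 against fibroblasts (limma, adjusted p = 1.37e-06).

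Cd36, the fatty acid translocase of the plasma membrane, set both tissues apart from fibroblasts. It lay at 12.20, 12.16 and 12.11 in KO hearts and at 12.01, 12.22 and 12.12 in WT hearts. It lay at 11.67, 11.56 and 11.38 in KO lungs and at 11.49, 11.65 and 11.84 in WT lungs. In fibroblasts it was at 3.47 and 3.48 in KO and at 3.51 and 3.35 in WT, below the filter level of 3.79, so those values are near the floor of the arrays. The difference between WT heart and WT lungs was 0.45 ± 0.12 (SE; limma, adjusted p = 0.00468), the smallest among the oxidation genes called there. Lpl, the lipase that frees fatty acids from blood lipoproteins, was 2.89 higher in WT heart than in WT lungs and 4.46 higher than in WT fibroblasts. Acot2, a mitochondrial acyl-CoA thioesterase, was 1.15 and 1.77 higher in the same comparisons. Its probe set is of the type shared by several transcripts and its paralog Acot1 is nearly identical, so the signal cannot be given to Acot2 alone.

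The carnitine shuttle held both the largest difference between WT heart and WT lungs and the exception. Cpt1b, the muscle form of carnitine palmitoyltransferase 1, lay at 11.42, 11.17 and 11.23 in KO hearts and at 11.06, 11.18 and 11.05 in WT hearts. In lungs it lay at 3.69, 6.69 and 7.32 in KO and at 5.56, 4.29 and 4.33 in WT, and in fibroblasts between 3.95 and 4.30. The WT heart was 6.37 ± 0.66 above the WT lungs (SE; limma, adjusted p = 1.59e-06), 82.6-fold, the largest difference among the 31 genes in that comparison. The fold is imprecise, as the WT lungs values of 4.29 and 4.33 lie close to the filter level of 3.79.

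Cpt1a, the form made in liver and many other tissues, lay at 7.44, 7.74 and 8.43 in KO hearts and at 8.57, 8.66 and 8.36 in WT hearts. It lay at 8.93, 8.20 and 8.16 in KO lungs and at 8.72, 8.93 and 8.89 in WT lungs, and between 8.46 and 8.95 in fibroblasts. The WT ranges of heart and lungs did not overlap, but the difference of -0.32 ± 0.24 (SE) did not pass (limma, adjusted p = 0.274). Fitted on these 2 groups alone it did (limma, adjusted p = 0.0488). In KO animals Cpt1a was lower in heart than in fibroblasts by -0.72 ± 0.27 (SE; limma, adjusted p = 0.0299), and the heart minus lungs value was -0.56 (limma, adjusted p = 0.0531). Both values changed side of the threshold under alternatives. The difference from fibroblasts did not pass without KO heart 1602 (-0.50), KO heart 1603 (-0.65), KO fibroblasts 1584 (-0.59) or KO fibroblasts 1550 (-0.85), after quantile normalization (-0.47) or with the compared groups alone (-0.72), with adjusted p between 0.0547 and 0.171 (limma). The difference from lungs passed without KO heart 1586 (-0.84), KO lungs 1586 (-0.70) or KO lungs 1603 (-0.68), and without the 3 lungs samples with high adipocyte markers (-1.06), with adjusted p between 0.00428 and 0.0445 (limma). Its promoter window holds the half-site, a CCAAT box and a GC box.

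The other shuttle genes were all higher in WT heart than in WT lungs. Cpt2, which turns the carnitine ester back into acyl-CoA inside the mitochondrion, differed by 3.61 ± 0.26. Crat, which moves acetyl groups between CoA and carnitine, differed by 3.39 ± 0.20, and Slc25a20, the carnitine carrier of the inner membrane, by 1.97 ± 0.21 (SE for each).

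The 4 acyl-CoA dehydrogenases, which take the first step of the spiral on chains of falling length, were close to each other in their tissue difference. WT heart was above WT lungs by 3.04 ± 0.22 for Acadvl (very long chains), 2.51 ± 0.15 for Acadl (long chains), 3.04 ± 0.29 for Acadm (medium chains) and 3.24 ± 0.22 for Acads (short chains; SE for each). Acadm lay at 12.93, 12.85 and 12.86 in KO hearts and at 13.04, 12.96 and 12.76 in WT hearts. It lay at 9.59, 10.61 and 10.86 in KO lungs, at 10.48, 9.52 and 9.63 in WT lungs, and between 8.68 and 9.13 in fibroblasts. The SD was 0.05 in KO hearts and 0.14 in WT hearts, against 0.68 in KO lungs and 0.52 in WT lungs.

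Of the later enzymes of the spiral, all 7 measured were higher in WT heart than in WT lungs. Hadhb, the thiolase subunit of the trifunctional protein, differed by 3.38 ± 0.29. Decr1, the dienoyl-CoA reductase for unsaturated chains, differed by 3.19 ± 0.26, and Eci1, an enoyl-CoA isomerase, by 3.08 ± 0.19. Acaa2, the mitochondrial thiolase, differed by 2.59 ± 0.23 and Echs1, the short-chain hydratase, by 2.55 ± 0.19. Eci2, a further isomerase, differed by 1.79 ± 0.11 and Hadh, the hydroxyacyl-CoA dehydrogenase, by 1.43 ± 0.19 (SE for each). The Acaa2 probe set is of the same shared type as that of Acot2, and that of Hadh is not of the gene-unique type. Other transcripts they may match were not checked. Lpl, Fabp3 and Hadh lay at 13.14 to 13.39 in hearts, close to the highest signal of any probe set on those arrays, which was at most 14.04. Whether signal near the top of the range is compressed was not tested.

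Both genes of electron transfer were higher in WT heart than in WT lungs, Etfdh, the dehydrogenase that hands electrons to ubiquinone, by 4.27 ± 0.21 (SE; limma, adjusted p = 1.12e-09) and Etfa, a subunit of the electron transfer flavoprotein, by 2.74 ± 0.19 (SE). Among the regulators, Ppara, the nuclear receptor that senses fatty acids, differed by 3.51 ± 0.55 and Mlycd, which removes malonyl-CoA, by 2.38 ± 0.15 (SE for each). Pdk4, the kinase that shuts off pyruvate dehydrogenase when fat is burned, differed by 5.06 ± 0.78 (SE; limma, adjusted p = 7.06e-05).

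**Figure D2:**
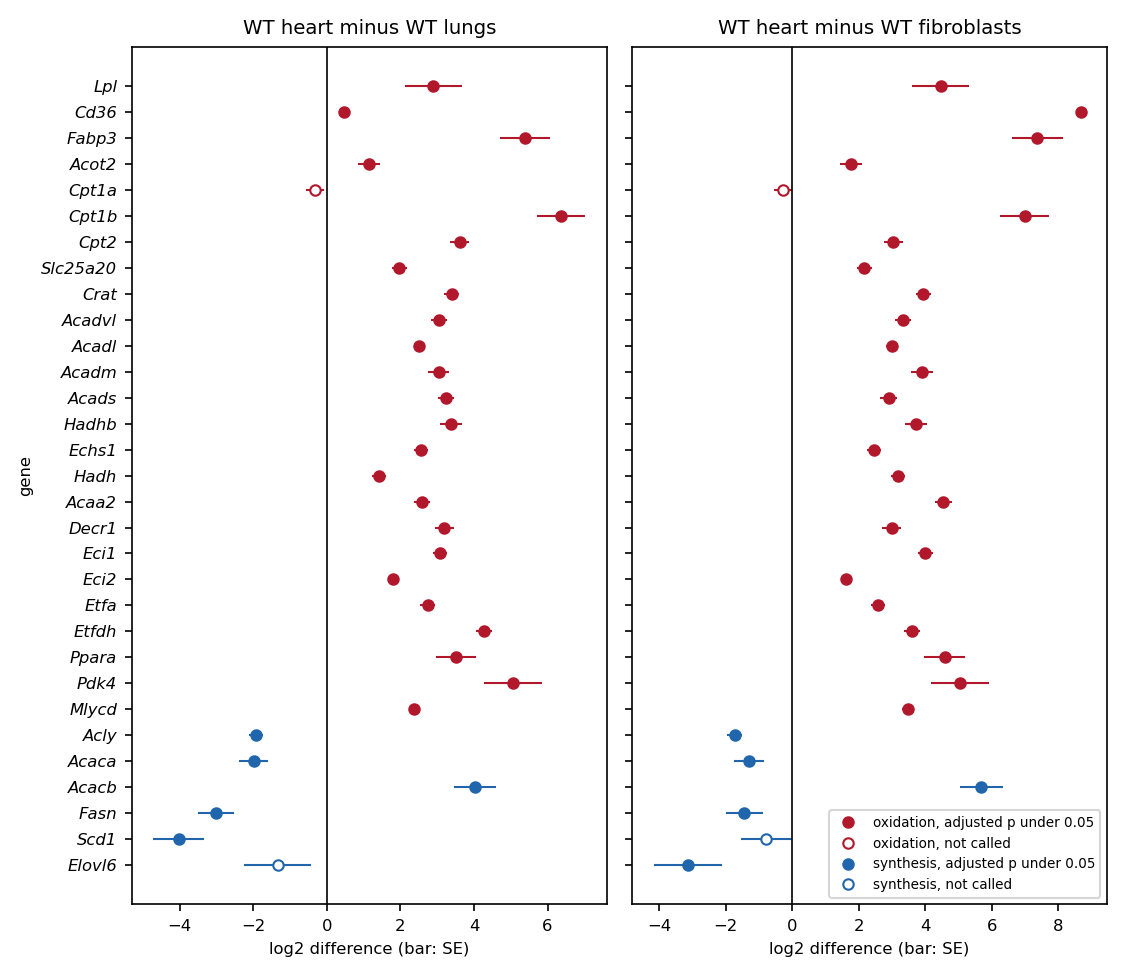
Log2 difference of WT heart from WT lungs (left) and from WT fibroblasts (right) for each of the 31 genes, with bars of 1 SE and filled points for an adjusted p under 0.05. In both panels 24 of the 25 oxidation genes (red) lie right of 0 with filled points, Cpt1a has an open point, and Acacb is the only synthesis gene (blue) right of 0.

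Synthesis genes went the other way, with 1 exception. In WT animals, 4 of the 6 were lower in heart than in lungs, against 35.1% of all probe sets, and 1 was higher. The same counts held against fibroblasts, where 35.8% of all probe sets were lower in heart, with Elovl6 in place of Scd1 among the 4. Single samples decided that exchange. Without WT heart 1593, Scd1 passed against fibroblasts at -1.89 (limma, adjusted p = 0.00145), and without WT fibroblasts 1623, Elovl6 did not, at -2.52 (limma, adjusted p = 0.124). In KO animals, 5 of the 6 were lower in heart than in lungs, against 43.7% of all probe sets, and 5 were lower in heart than in fibroblasts, against 43.0%. Acacb was the 1 higher in all of these. Without the 3 lungs samples with high adipocyte markers, 4 were lower in KO heart than in KO lungs, since Elovl6 differed by -0.72, against -3.33 with all samples, and fell below the filter. Scd1 lost its call between KO heart and KO fibroblasts without either KO fibroblast sample, at -2.37 and -2.40 (limma, adjusted p = 0.0600 and 0.0567).

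Scd1, the desaturase that makes oleate from stearate, lay at 6.37, 7.38 and 6.90 in KO hearts and at 8.09, 6.96 and 10.85 in WT hearts. It lay at 12.64, 13.26 and 13.37 in KO lungs, at 13.00, 12.48 and 12.51 in WT lungs, and between 9.02 and 9.81 in fibroblasts. All 6 lungs samples were above all other samples. The WT heart differed from the WT lungs by -4.03 ± 0.68 (SE; limma, adjusted p = 0.000164) and from WT fibroblasts by -0.78 ± 0.76 (SE; limma, adjusted p = 0.387). The second value rested on WT heart 1593, at 10.85, and was -1.89 without it.

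Fasn, fatty acid synthase, lay at 5.48, 6.404 and 6.07 in KO hearts and at 6.399, 6.21 and 7.93 in WT hearts. It lay at 9.51, 11.08 and 11.36 in KO lungs, at 10.40, 9.64 and 9.57 in WT lungs, and between 8.08 and 8.49 in fibroblasts. The order of lungs, fibroblasts and heart held without overlap between tissues. The WT heart differed from the WT lungs by -3.02 ± 0.49 (SE; limma, adjusted p = 0.000112) and from WT fibroblasts by -1.44 ± 0.55 (SE; limma, adjusted p = 0.0338). The call against fibroblasts was lost without WT heart 1592 (-1.21), WT heart 1624 (-1.12), WT fibroblasts 1571 (-1.64) or WT fibroblasts 1623 (-1.23), and with no filter (-1.44), with adjusted p between 0.0565 and 0.165 (limma).

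The enzymes before Fasn were lower in heart too. Acly, which splits citrate into acetyl-CoA, differed by -1.92 ± 0.20 between WT heart and WT lungs and by -1.73 ± 0.22 between WT heart and WT fibroblasts. Acaca, the acetyl-CoA carboxylase of the cytosol, differed by -1.99 ± 0.40 and -1.30 ± 0.45 (SE for each). The call of Acaca against fibroblasts was lost without WT heart 1592 (-1.22), WT heart 1624 (-1.17) or WT fibroblasts 1623 (-1.13), and after quantile normalization (-1.10), with adjusted p between 0.0544 and 0.120 (limma). Elovl6, which lengthens palmitate, had its highest means in fibroblasts, at 7.29 and 6.93 in KO and 6.58 and 7.82 in WT, against 3.44 to 4.94 in the 6 hearts. It was above every fibroblast sample in KO lungs 1603 and 1586, at 8.02 and 8.43. Its difference of -3.14 ± 1.02 between WT heart and WT fibroblasts passed (SE; limma, adjusted p = 0.0156), and that of -1.33 ± 0.92 between WT heart and WT lungs did not (SE; limma, adjusted p = 0.223), and was -0.47 without the lungs samples with high adipocyte markers.

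Acacb, the carboxylase of the mitochondrial surface whose malonyl-CoA acts on the carnitine shuttle, lay at 9.79, 9.65 and 9.61 in KO hearts and at 9.51, 9.58 and 9.37 in WT hearts. It lay at 4.36, 6.74 and 7.51 in KO lungs, at 6.31, 5.07 and 4.97 in WT lungs, and between 2.88 and 3.99 in fibroblasts. The hearts were above all other samples. The WT heart was 4.03 ± 0.58 above the WT lungs (SE; limma, adjusted p = 3.66e-05) and 5.68 ± 0.65 above WT fibroblasts (SE; limma, adjusted p = 3.52e-06). The first is 16.4-fold. No fold is given against fibroblasts, whose WT values of 3.99 and 3.62 lie around the filter level of 3.79.

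Lungs and fibroblasts were closer to each other. In WT animals, 9 oxidation genes were higher in lungs than in fibroblasts and 1, Etfdh, was lower, at -0.67 ± 0.24 (SE; limma, adjusted p = 0.0275). Of all probe sets, 28.5% were higher and 31.6% lower in WT lungs than in WT fibroblasts. After Cd36, the largest called differences were 1.99 for Fabp3, 1.94 for Acaa2, 1.75 for Hadh and 1.10 for Mlycd. Of the synthesis genes, Scd1 (3.25), Acacb (1.65) and Fasn (1.59) were higher in WT lungs. The 13 calls of this comparison became 8 without WT lungs 1592, 7 without WT fibroblasts 1571 and 7 without WT fibroblasts 1623. Fabp3, Fasn, Acacb, Acadm and Crat lost their calls without each of these 3 samples, and Etfdh without either WT fibroblast sample. Without WT lungs 1592 and the 2 KO lungs samples with high adipocyte markers together, all 13 stayed called, and Cpt2, Acads, Decr1 and Elovl6 were called lower as well. In KO animals, 13 oxidation genes and 5 synthesis genes were higher in lungs, against 29.5% of all probe sets, and none of the members was lower, against 35.3%. Without the 2 KO lungs samples and the WT lungs sample with high adipocyte transcripts, this KO comparison rested on KO lungs 1602 alone. Many of the higher calls were then lost, among them those of Acadvl (0.19), Hadhb (0.10) and Fasn (1.26). Cd36 (8.20), Scd1 (3.37), Acaa2 (1.74) and Hadh (1.40) stayed above 0. Values below 0 included Fabp3 at -0.95, Cpt2 at -1.12, Acads at -0.60, Etfdh at -0.77 and Elovl6 at -2.80.

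Ranking the 3 tissues by their means, 24 of the 25 oxidation genes were highest in heart in both genotypes. Acly, Acaca, Fasn and Scd1 ran from lungs to fibroblasts to heart in both genotypes, Acacb from heart to lungs to fibroblasts, and Elovl6 from fibroblasts to lungs to heart. Neighbours in these orders often did not differ beyond their spread, as with the 15 oxidation genes that passed in neither direction between WT lungs and WT fibroblasts. For genes with further probe sets, 18 of the 18 additional probe sets of called genes had the same sign as the chosen one between WT heart and WT lungs. Between WT heart and WT fibroblasts 17 of 19 did, and the remaining 2, of Acacb and Elovl6, were below the filter. Between lungs and fibroblasts 13 of 15 did in KO, with Acacb and Acly opposite, and 7 of 9 in WT, with Acacb and Crat opposite. With the mean of a gene's probe sets, Crat (0.21), Acadl (0.28) and Acacb (0.63) lost their calls between WT lungs and WT fibroblasts.

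The same tissue pattern was present in the respiratory chain, which receives the electrons, and in the TCA cycle. Of 33 genes of the respiratory chain and the TCA cycle, 33 were higher in WT heart than in WT lungs and 33 were higher than in WT fibroblasts, with median differences of 2.50 and 2.32. The counts that follow stand beside 25.6% of all probe sets higher and 35.1% lower in WT heart than in WT lungs. Of 18 further mitochondrial oxidation genes, 14 were higher and 0 lower in WT heart than in WT lungs, among them Acot13 (3.39), a thioesterase. Of 13 peroxisomal oxidation genes, 7 were higher and 2 lower, with Acox2, the oxidase for branched chains and bile acid precursors, at -2.97. Of 18 genes of uptake, activation and lipolysis, 6 were higher and 6 lower, near the shares over all probe sets. Plin5, a lipid droplet protein of oxidative tissue, was higher by 4.44 and the acyl-CoA synthetase Acsl6 by 4.08, whereas the synthetases Acsl5, Acsl4 and Acsl3 differed by -3.17, -2.94 and -2.34.

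Of 24 regulators, 13 were higher and 5 lower in WT heart than in WT lungs. The coactivator Ppargc1b (4.59) and the nuclear receptors Rxrg (4.85) and Esrrg (4.43) were among those that were higher. Of 6 kinases and phosphatases of pyruvate dehydrogenase and uncoupling proteins, 5 were higher and 1 lower, with Ucp3 at 4.25 and Pdk2 at 3.73. Both ketone body genes measured were higher. Of 21 further genes of synthesis, elongation and desaturation, 10 were lower and 6 higher, counts that are not far from the shares over all probe sets. The elongases Elovl1 (-4.02) and Elovl5 (-2.34), the desaturases Fads1 (-2.39) and Fads2 (-2.09) and the citrate carrier Slc25a1 (-1.90) were lower, and Dgat2 (3.96), which completes triglycerides, was higher.

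The genotype comparison gave no called member. Between KO and WT, 0 of the 31 genes passed in lungs, 0 of 31 in heart and 0 of the 28 above the filter in fibroblasts (limma), where Cd36, Ppara and Acacb were below it. Over all probe sets, 0.0301% passed in lungs, 0.127% in heart and 0.0549% in fibroblasts. At an unadjusted p under 0.05 there were 4 members in lungs, 2 in heart and 0 in fibroblasts. Over all probe sets there were 1617, 3746 and 727, or 6.96%, 17.0% and 3.33% of those tested. The smallest adjusted p over the members was 0.711 in lungs, 0.209 in heart and 0.9999 in fibroblasts (limma). The interval of the difference lay within a 2-fold change either way for 16 of 25 oxidation genes in lungs, 19 in heart and 18 in fibroblasts, and for 1 of 6 synthesis genes in each tissue. For the other genes the interval reached past a 2-fold change. Each interval uses 1 spread per probe set, shared by all 6 groups, so heart intervals also carry the spread of lungs and fibroblasts. The Lpl interval in heart ran from -1.67 to 1.65, although its heart samples lay at 13.26 to 13.38.

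**Figure D3:**
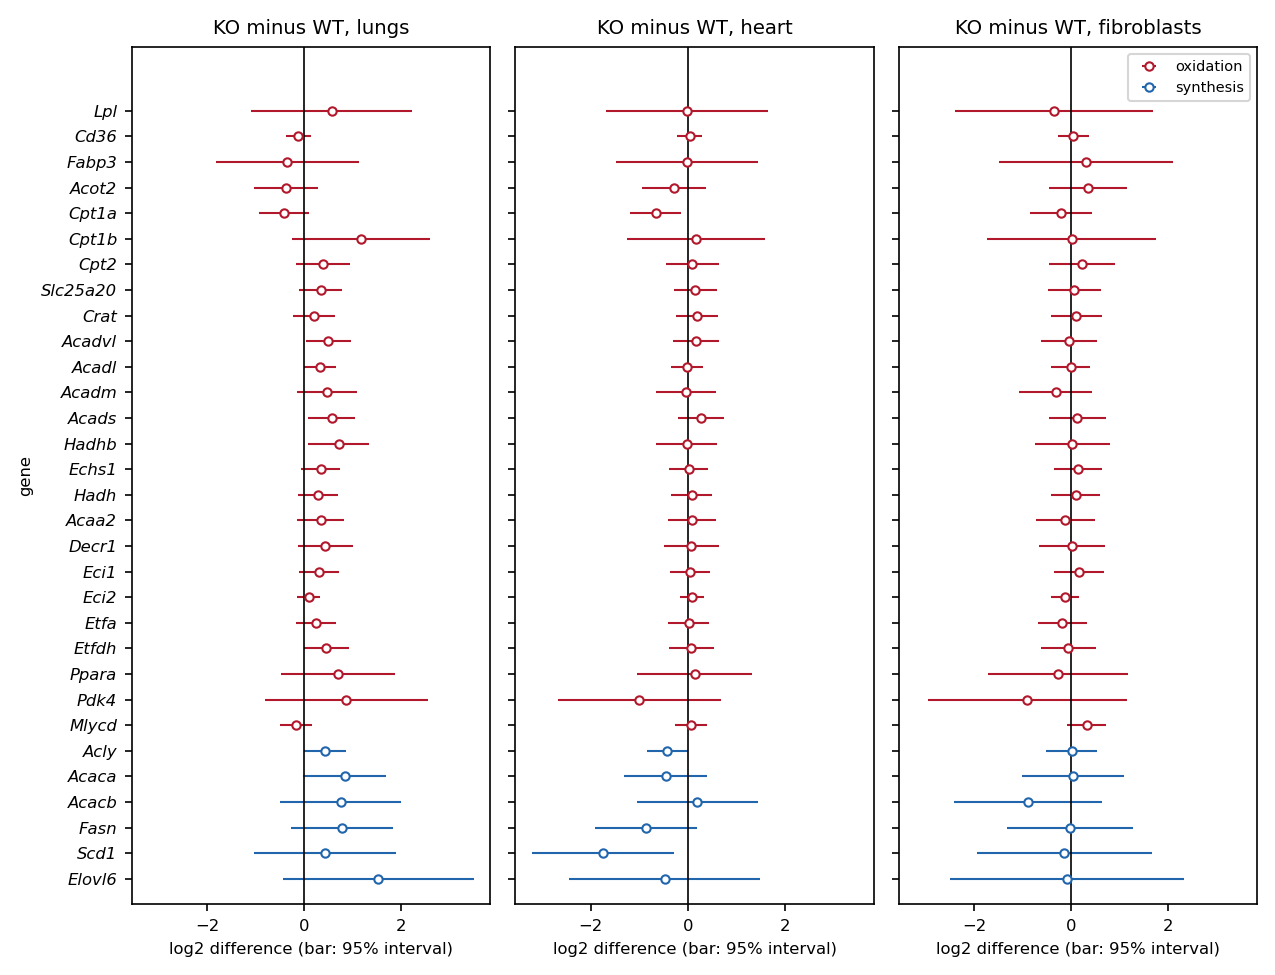
Log2 difference of KO from WT in lungs, heart and fibroblasts for each of the 31 genes, with 95% intervals from limma, oxidation genes in red and synthesis genes in blue. Intervals are widest for Elovl6, Lpl and Pdk4, and no point passed the adjusted threshold.

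In lungs the differences leaned upwards. Of the 25 oxidation genes, 20 had values above 0, with a median of 0.34, and all 6 synthesis genes did, with a median of 0.77, beside a median of -0.06 over all probe sets. No member had KO and WT lungs without overlap, against 5.08% of probe sets with KO higher and 6.46% with KO lower. The single samples varied within each genotype. The mean over the 25 oxidation genes was 7.94 in KO 1602, 8.83 in KO 1603 and 9.02 in KO 1586, against 8.67 in WT 1592, 8.09 in WT 1624 and 8.09 in WT 1593. The mean over the 6 synthesis genes was 7.98, 9.73 and 10.07 in the KO lungs in the same order, against 9.17, 8.11 and 8.13 in the WT lungs. The 3 high samples of both lists, KO 1603, KO 1586 and WT 1592, were those with high adipocyte markers. The part of adipocyte transcripts in the medians was not tested.

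**Figure D4:**
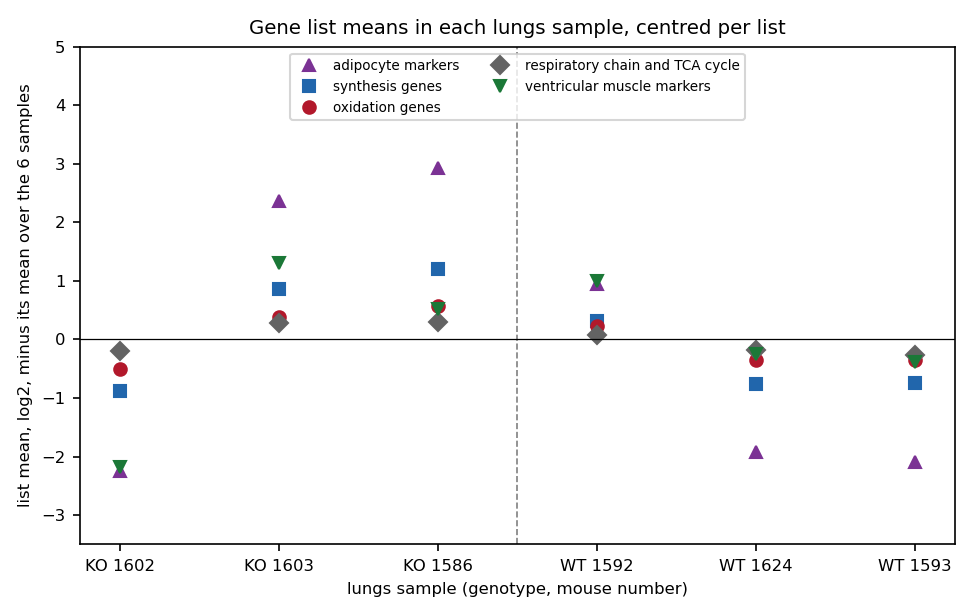
Mean log2 signal over the genes of 5 lists in each of the 6 lungs samples, minus that list's mean over the 6 samples, with KO samples left of the dashed line and WT samples right of it. KO 1603, KO 1586 and WT 1592 lie above 0 for all 5 lists and the other 3 samples lie below 0.

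These 3 samples were above the other 3 for 20 of the 25 oxidation genes, for 6 of the 6 synthesis genes and for 30 of 33 respiratory chain and TCA cycle genes, against 2333 of 23218 probe sets. Adipoq, the adipocyte hormone adiponectin, lay at 2.73 in KO 1602, 10.53 in KO 1603 and 10.80 in KO 1586, against 9.83 in WT 1592, 3.99 in WT 1624 and 3.45 in WT 1593. The mean of 6 ventricular muscle markers was 4.89, 8.39 and 7.59 in the KO lungs and 8.08, 6.83 and 6.70 in the WT lungs, although Myl2 stayed at 3.19 to 4.14. Atrial muscle markers moved alike, with means of 5.35, 8.77 and 7.998 in the KO lungs and 8.51, 6.56 and 6.37 in the WT lungs.

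Elovl6 had the widest range, at 4.31, 8.02 and 8.43 in KO lungs and 7.11, 4.44 and 4.63 in WT lungs, a difference of 1.53 (95% interval -0.44 to 3.50). Pdk4 lay at 4.91, 7.95 and 8.55 in KO lungs and at 7.55, 5.72 and 5.54 in WT lungs. Acaca lay at 6.90, 8.69 and 8.84 in KO lungs and at 7.84, 7.06 and 7.04 in WT lungs. In each of these genes 2 KO samples and 1 WT sample were high. Cpt1a ran in the opposite sense, at 8.93, 8.20 and 8.16 in KO lungs and 8.72, 8.93 and 8.89 in WT lungs.

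Without those 3 samples, the medians of the KO minus WT difference were -0.04 for oxidation and -0.12 for synthesis, with 1 KO lungs sample against 2 WT lungs samples. Fabp3 then passed, at -2.20 (limma, adjusted p = 0.00730), resting on 5.33 in KO 1602 against 7.30 and 7.77 in WT 1624 and WT 1593. The muscle marker Tnnt2 was 5.45 in KO 1602 and 8.52 in each of those WT samples. The part of the muscle transcripts in the Fabp3 value was not tested. Without KO lungs 1602 instead, Cpt1b (2.28), Acaca (1.45), Hadhb (1.17) and Acads (0.92) passed, with adjusted p between 0.0208 and 0.0327 (limma), and both remaining KO samples were then ones with high adipocyte markers.

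In heart, the oxidation genes of KO and WT lay close together. The median difference was 0.07, beside -0.16 over all probe sets, and 17 of the 25 were above 0. The mean over the 25 genes was 11.22, 11.17 and 11.15 in KO hearts and 11.19, 11.29 and 11.10 in WT hearts. The median SD over the oxidation genes was 0.08 in KO hearts and 0.13 in WT hearts, against 0.55 in KO lungs and 0.28 in WT lungs. In Acadvl and Acads every KO heart was above every WT heart, against 3.91% of all probe sets with KO higher, by 0.17 and 0.27 (limma, adjusted p = 0.713 and 0.547).

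Cpt1a was the oxidation gene with the smallest p in heart. At 7.44, 7.74 and 8.43 in KO hearts against 8.57, 8.66 and 8.36 in WT hearts, it differed by -0.66 (95% interval -1.18 to -0.14, limma, adjusted p = 0.209), with 1 KO sample inside the WT range. Without KO heart 1602, the array with the low upper quartile, the value was -0.44. Fibroblast markers and endothelium markers leaned the same way in heart, with medians of -0.58 and -0.46 and values below 0 for 7 of 7 and 6 of 6, none of them called, and their part in the Cpt1a value was not tested. Pdk4 lay at 10.30, 11.03 and 9.66 in KO hearts and at 11.02, 11.37 and 11.61 in WT hearts, a difference of -1.002 (limma, adjusted p = 0.525). Atrial muscle markers also split the hearts, with list means of 4.95, 9.95 and 5.66 in KO and 10.29, 9.13 and 10.47 in WT. KO 1602 and KO 1586 are low in both Pdk4 and the atrial markers, and the part of the atrial transcripts in the Pdk4 value was not tested.

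Synthesis genes in heart had a median difference of -0.46, with 5 of 6 below 0. Scd1 gave the largest value, -1.75 (95% interval -3.22 to -0.28, limma, adjusted p = 0.229), and Fasn gave -0.86 (limma, adjusted p = 0.381). WT heart 1593 was the highest heart sample in Scd1, Fasn, Elovl6, Acly and Acaca. It also had the highest Adipoq signal, 7.57, against 2.70 to 4.20 in the KO hearts and 4.72 and 2.96 in the other WT hearts. Without WT heart 1593 the differences were -0.64 for Scd1, -0.32 for Fasn, -0.25 for Acaca, -0.25 for Acly and -0.03 for Elovl6. The part of adipocyte transcripts in the heart values was not tested. Acaca was the synthesis gene with every KO heart below every WT heart, against 13.7% of all probe sets with KO lower. Acacb was the one with every KO heart above, against 3.91% with KO higher.

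**Figure D5:**
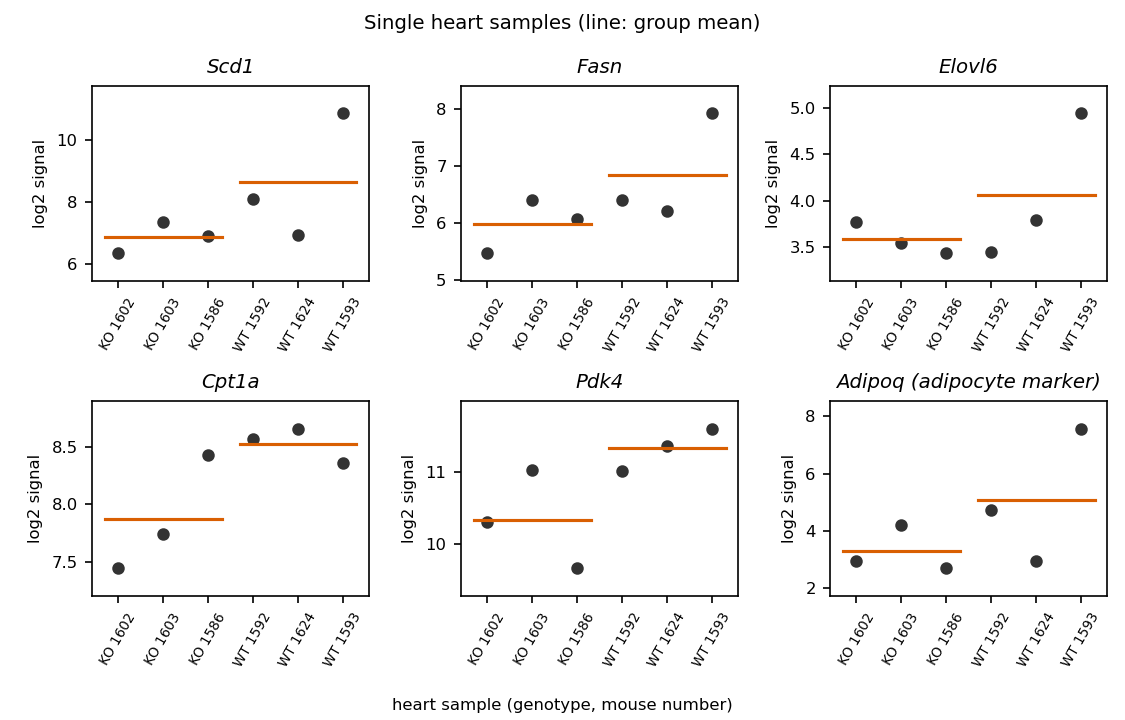
Log2 signal of 5 fatty acid genes and of the adipocyte marker Adipoq in each heart sample, KO left of WT, with a line at the mean of each genotype. WT 1593 is the highest sample for Scd1 (10.85), Fasn (7.93), Elovl6 (4.94) and Adipoq (7.57), and KO 1602 is the lowest for Cpt1a (7.44).

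In fibroblasts, 2 samples stood on each side. The median difference was 0.02 for the oxidation genes, equal to the 0.02 over all probe sets at this precision, and -0.06 for the synthesis genes. Of the 25 oxidation genes, 5 had both KO samples above both WT samples, against 19.5% of probe sets, and 2 had them below, against 13.0%. Lpl varied most, at 9.45 and 7.59 in KO fibroblasts and 11.03 and 6.71 in WT fibroblasts. Pdk4 lay at 5.76 and 5.04 in KO and at 6.91 and 5.70 in WT. In WT 1571, Lpl, Pdk4, the lipid binding protein Fabp4 (10.13, against 6.78 in WT 1623 and 8.08 and 7.68 in KO) and the adipogenic receptor Pparg (7.43, against 5.58 in WT 1623 and 5.44 and 5.30 in KO) were all at their highest among the fibroblasts. Their part in the genotype values was not tested.

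The KO minus WT difference itself was compared between tissues in the same model. No member passed for heart minus lungs, heart minus fibroblasts or lungs minus fibroblasts (limma), with smallest adjusted p of 0.690, 0.725 and 0.990, against 0%, 0.0131% and 0% of all probe sets. At an unadjusted p under 0.05 there were 4, 0 and 0 members, beside 1662, 1711 and 982 probe sets, or 7.12%, 7.48% and 4.17% of those tested. All 4 were synthesis genes in heart minus lungs. Their list had a median of -1.47 there, with the lungs samples with high adipocyte markers on 1 side and WT heart 1593 on the other. Without those 3 lungs samples the median was -0.45.

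None of the genes of the other pathway lists passed between KO and WT in any tissue (limma). The smallest adjusted p among them in heart was 0.0882 for the pyruvate dehydrogenase kinase Pdk3, at 3.13, 3.70 and 3.13 in KO hearts and 4.72, 3.98 and 4.81 in WT hearts, with KO below WT in every sample but low signal throughout. The uncoupling protein Ucp3 lay at 6.76, 7.07 and 6.75 in KO hearts and at 7.77, 7.88 and 7.28 in WT hearts, also without overlap, a difference of -0.78 (limma, adjusted p = 0.101). Of all probe sets, 13.7% had every KO heart below every WT heart. The respiratory chain and TCA cycle genes had median differences of 0.21 in lungs and 0.04 in heart.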

How the data were processed

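For each of 16 samples, Trizol RNA (6 ug) was made into biotin-labelled cRNA for Affymetrix mouse arrays, per the labels' protocols. The authors deposited 1 log2 signal per probe set and array. The tool named is Partek 6.4, per the submitters' processing notes, and the sources used here give neither the background correction nor the normalization. Array medians of 3.65 to 3.93 show the log2 scale. No array was a copy of another (smallest mean absolute difference 0.190).

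Of 45141 entries, 104 controls were set aside. Array annotation gave 1 gene for 28898 probe sets, several for 551 and none for 15588, and gene numbers gave a current symbol for 28689. Members, gene lists and marker lists were chosen with earlier results of these data known. All members are named, and in other lists those with the largest differences or smallest p.

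limma 3.58.1 in R 4.3.3 fitted 6 group means to the deposited values of all 16 arrays. Probe sets with a mean over the compared arrays above 3.79, the median of all values, were tested. Benjamini-Hochberg adjustment ran over these, and calls needed an adjusted p under 0.05. The p-values measure the spread between samples, with 1 estimate per probe set shared by the 6 groups. Lungs and heart of 1 mouse share the mouse number in their titles, which is where the pairing comes from, and the random block for the mouse had a consensus correlation of 0.0542. In data simulated for the heart comparison with 22112 probe sets, 49% of changes of 1 log2 unit and 82% of changes of 2 were recovered. The simulation used normal noise with 1 spread per probe set in all groups and 100 planted changes of each size. Spread in the data differed between groups, so recovery for the members themselves was not measured. Alternatives were quantile normalization, no filter or a stricter one, the compared groups alone, the block, each replicate left out, the mean of a gene's probe sets, and the lungs without 3 samples. Promoters are from RefSeq (GRCm38.p6). No promoter is printed for Acaa2.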

Additional observations from a re-analysis of the deposited data

Results flagged for a closer look

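For 2 genes every KO heart lay above every WT heart while both KO fibroblast samples lay below both WT fibroblast samples. Over all probe sets the first held for 3.91% and the second for 13.0%, and the share with both was not computed. Acadvl, the very long chain acyl-CoA dehydrogenase, had a KO effect 0.22 larger in heart than in fibroblasts (limma, adjusted p = 0.882). Acacb, the mitochondrial acetyl-CoA carboxylase, had a KO effect 1.08 larger in heart than in fibroblasts (limma, adjusted p = 0.773), and its fibroblast values, 2.88 and 2.97 in KO against 3.99 and 3.62 in WT, were around or below the filter level. Neither test of the difference between tissues passed. Groups of 2 and 3 samples are too small for a test of single outlying samples, so samples that stood apart are described by their values.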

How the results depend on the processing

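Of the values of single members under all alternatives, 4600 kept their direction and side of the threshold, 97 lost a call, 32 gained one, 197 uncalled values moved or changed sign, and 3 called or later called values changed sign. The 3 were in KO lungs minus KO fibroblasts without the 3 lungs samples with high adipocyte transcripts, at -0.95 for Fabp3 (limma, adjusted p = 0.0130), -0.43 for Cpt1b and -0.60 for Acads (limma, adjusted p = 0.0170), where KO lungs 1602 stood alone and was assumed to vary like the other groups. Under that alternative 1 member, Fabp3, was called between KO and WT lungs, and 1 each in the KO effect of heart minus lungs (2.18; limma, adjusted p = 0.0363) and of lungs minus fibroblasts (-2.51; limma, adjusted p = 0.0442). Leaving out single replicates gave 0 to 4 called members between KO and WT lungs, 7 to 11 in WT lungs minus WT fibroblasts against 13 with all samples, 12 to 24 in KO lungs minus KO fibroblasts against 18, 29 to 31 and 28 to 31 in KO heart against KO lungs and KO fibroblasts, 29 and 26 to 30 in WT heart against WT lungs and WT fibroblasts, and 0 in the other comparisons. With the mouse as a random replicate block, the pairing of lungs and heart changed no count of called members (29 in WT heart minus WT lungs, 30 in KO heart minus KO lungs, 0 between genotypes). Quantile normalization moved the median of all probe sets between KO and WT hearts to -0.02, against -0.16 as deposited, with medians of 0.06 for oxidation and -0.37 for synthesis. It moved the median of KO heart minus KO lungs to -0.06, against -0.32. The shares of all probe sets called under these alternatives are not given here. The number of arrays limits what could be called.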
